A study of Mus musculus with 8 samples.

Results

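The genes described here drive the copying of DNA and the division of the cell, and they were read in the sensory ganglia of mice after the sciatic nerve was cut or sham surgery was done. A given list of 58 S-phase and mitosis genes, with the kinesins of Kif names left out, was matched by gene name to the deposited expression table. All 58 were found among its 21878 genes. A replication set of 14 genes (Mcm2 to Mcm7, Mcm10, Gins1, Gins2, Cdc6, Pcna, Rrm1, Rrm2 and Tyms) was set beside a mitosis set of 34 genes (Cdk1, Ccna2, Ccnb1, Ccnb2, Cdc25b, Cdc25c, Plk1, Aurka, Cks1b, Cks2, Foxm1, Bub1, Bub1b, Mad2l1, Ttk, Nuf2, Ndc80, Cenpa, Cenpe, Cenpf, Cdc20, Ube2c, Aurkb, Birc5, Cdca8, Mki67, Top2a, Tpx2, Nusap1, Prc1, Racgap1, Anln, Ect2 and Cdca3). The other 10 genes act around the start of S phase (Ccnd1, Ccne1, Ccne2, E2f1, Cdc45, Cdt1, Tk1, Fen1, Uhrf1 and Chaf1b). The RNA came from the dorsal root ganglia at lumbar levels 4 and 5. The mice were C57BL/6 and were studied 3 days after surgery, with 2 libraries in each of 4 groups. The dKO SNI group carried floxed alleles of Myh9 and Myh10 together with Advillin-Cre and had its sciatic nerve cut, an axotomy that the sample names call SNI. The dKO sham group had the same alleles and Cre with sham surgery. The WT SNI group carried the floxed alleles without Cre and had the nerve cut, and the WT sham group carried them without Cre and had sham surgery. Myh9 and Myh10 encode heavy chains of non-muscle myosin II, a motor that contracts actin filaments. Advillin (Avil) is active in sensory neurons, so the Cre is aimed at these and not at the glia, vessels, fibroblasts and leukocytes of the ganglion. Recombination in each cell type was not measured here.

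A cell that enters the cycle first makes D-type and E-type cyclins, whose kinases release the E2F factors from the retinoblastoma protein. E2F factors then switch on genes for loading the MCM helicase onto origins, for making deoxynucleotides and for copying DNA. Genes for mitosis come on later, in G2, through the MuvB complex with B-MYB and FOXM1, which binds a short promoter element called CHR, the cell cycle genes homology region. NF-Y, which binds CCAAT boxes, acts on many of the same promoters. Sensory neurons of an adult ganglion no longer divide. Satellite glia, Schwann cells, fibroblasts, endothelial cells and macrophages of the ganglion can.

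The difference in promoter letters between the mitosis and the replication genes is shown here because it separates the sets by something other than their levels. Promoter windows from RefSeq (GRCm38.p6, 250 bases before to 50 bases after a gene's start) were found for 48 of the 58 genes. CHR was searched as TTTGAA or TTCGAA and the CCAAT box as CCAAT. The E2F element was searched as TTTGGCGC, TTTCGCGC, TTTCCCGC or TTTGCCGC. Both strands were searched. In the mitosis genes below, capitals mark CHR and CCAAT matches, and in the replication genes they mark E2F matches. All are printed 5′ to 3′ on the strand of the gene, and a capital run of 12 letters holds a pair of overlapping E2F matches on opposite strands.
Ube2c, chr2:164769829-164769928, plus strand: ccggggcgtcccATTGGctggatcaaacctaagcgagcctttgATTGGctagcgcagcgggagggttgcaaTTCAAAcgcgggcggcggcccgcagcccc
Prc1, chr7:80294396-80294475, plus strand: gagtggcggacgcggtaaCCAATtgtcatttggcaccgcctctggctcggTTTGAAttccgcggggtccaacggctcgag
Mki67, chr7:135716380-135716579, minus strand: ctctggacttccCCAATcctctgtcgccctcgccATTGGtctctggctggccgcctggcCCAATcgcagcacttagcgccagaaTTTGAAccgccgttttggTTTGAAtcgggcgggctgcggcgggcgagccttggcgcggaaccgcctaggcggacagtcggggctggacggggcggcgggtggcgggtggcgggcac
Cdk1, chr10:69352913-69353052, minus strand: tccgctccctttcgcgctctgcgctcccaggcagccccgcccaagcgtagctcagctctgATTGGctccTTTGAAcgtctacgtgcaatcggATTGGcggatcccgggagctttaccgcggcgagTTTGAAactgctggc
Mcm6, chr1:128359706-128359825, minus strand: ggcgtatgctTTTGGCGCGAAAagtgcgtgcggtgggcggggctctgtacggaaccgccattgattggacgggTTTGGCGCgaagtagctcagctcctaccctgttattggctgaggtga
Mcm5, chr8:75109349-75109508, plus strand: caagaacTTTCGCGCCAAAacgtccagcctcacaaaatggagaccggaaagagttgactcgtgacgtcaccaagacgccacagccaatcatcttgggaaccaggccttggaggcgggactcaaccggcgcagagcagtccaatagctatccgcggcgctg

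A CHR match was present in the windows of 22 of 29 mitosis genes (75.9%) and of 2 of 11 replication genes (18.2%), against 21.7% of the 27025 genes of the promoter table. An E2F match was present in 1 of 29 mitosis genes (3.45%) and in 5 of 11 replication genes (45.5%), against 2.60% of all genes. The mitosis gene was Cdk1, whose match stands in lower case near the 5′ end of its line, and the replication genes were Mcm3, Mcm5, Mcm6, Mcm7 and Cdc6. CCAAT was frequent in both sets, at 79.3% of mitosis genes and 81.8% of replication genes against 41.1% of all genes. CHR and CCAAT stood in the same window of 20 of 29 mitosis genes (69.0%), 2 of 11 replication genes (18.2%) and 9.65% of all genes. In Ube2c the CHR match lay at bases -29 to -24 from the start, and in Prc1 at bases -30 to -25. A match is a description of the letters, not of a bound site, and no factor's binding was measured in these ganglia.

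Values are FPKM, a fragment count scaled by transcript length and library size, and read totals were not recovered, which leaves the depth and its counting error unknown. Changes are differences of log2(FPKM + 1) with their standard errors; for genes near or under 1 FPKM this makes a change look smaller than it is. They were tested with limma over all genes, with Benjamini-Hochberg adjusted p below 0.05 counted as a call. The labels do not say whether the 2 libraries of a group stem from different animals. P-values therefore describe only the spread among these libraries, which may be technical. Total FPKM per library lay between 278310 and 339920. Myh9 measured 24.6 and 24.4 FPKM in dKO SNI, 10.9 and 12.1 in dKO sham, 30.8 and 29.7 in WT SNI, and 27.2 and 31.6 in WT sham. Myh10 measured 5.31 and 4.12 FPKM in dKO SNI, 12.2 and 14.4 in dKO sham, 13.8 and 10.4 in WT SNI, and 18.1 and 23.5 in WT sham. The dKO libraries lay below the WT libraries of the same surgery for both genes. Y-linked transcripts were present in dKO SNI and WT sham (22.7 to 38.7 FPKM summed over 4 genes) and at or near 0 in dKO sham and WT SNI (at most 0.0109 FPKM). Every comparison of a pair of groups below therefore also sets libraries with these transcripts against libraries without them, and these differences cannot be told apart. An average of the injury change over genotypes, or of the genotype change over surgeries, is balanced for them. WT sham 2 stood apart in skeletal muscle markers, at 793 FPKM summed over 8 genes against 48.7 to 94.6 FPKM in the other libraries.

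The cell cycle genes were highest in injured dKO ganglia. Their summed level was 462 and 430 FPKM in dKO SNI, 152 and 185 in dKO sham, 198 and 263 in WT SNI, and 119 and 117 in WT sham. The 8 libraries fell into their 4 groups without overlap on this sum. The group means ran in the order WT sham, dKO sham, WT SNI and dKO SNI from low to high in 48 of the 58 genes, an order that 24.6% of all tested genes had. The dKO SNI mean was the highest in 56 of the 58 genes, against 40.0% of all tested genes. Both dKO SNI libraries lay above all other libraries in 55 of the 58 genes, against 25.3% of all tested genes, and the exceptions were Ccne1, E2f1 and Prc1. WT sham had the lowest mean in 51 of the 58 genes, against 40.6% of all tested genes. In ganglia taken whole, more RNA per cell and more cells of a type cannot be told apart.

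**Figure D1:**
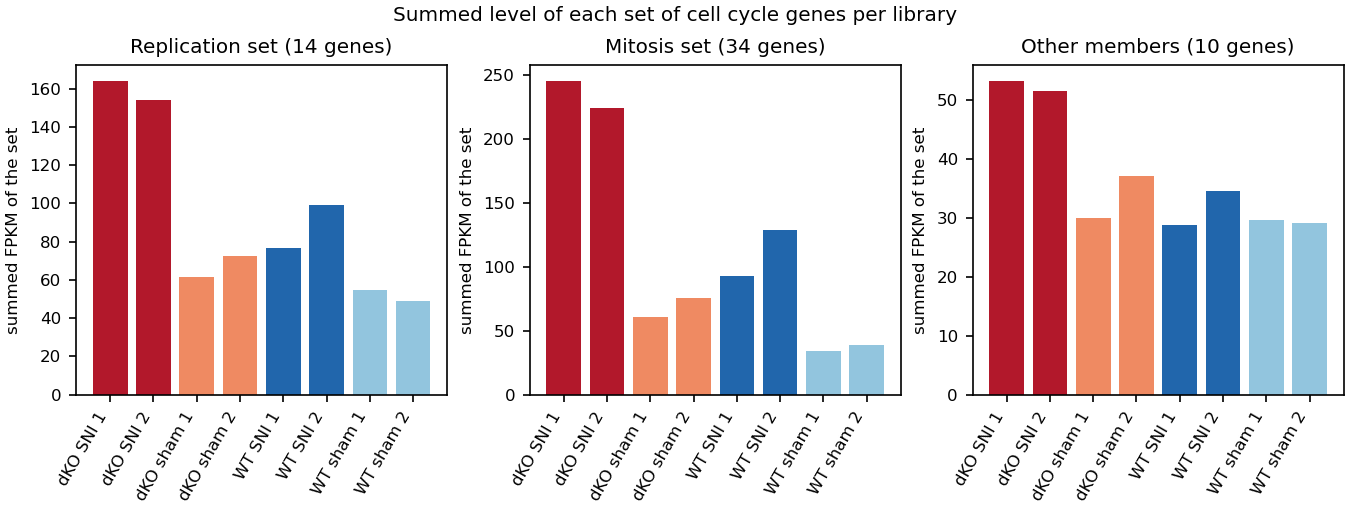
Bars give the summed FPKM of the 14 replication genes, the 34 mitosis genes and the 10 other genes in each of the 8 libraries, colored by group, on axes that start at 0. The mitosis set reached 245 and 224 FPKM in dKO SNI and 34.0 and 38.9 in WT sham, while the other genes spanned 28.8 to 53.2 FPKM over all libraries.

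The gain after axotomy was seen in both genotypes. For the test, 56 of the 58 genes reached 1 FPKM in at least 2 libraries. Mcm10 (0.119 to 1.48 FPKM) and Cdc25c (0.0193 to 0.790 FPKM) did not, and Cdc6, Tyms, Bub1, Ttk and Cenpf reached 1 FPKM only in dKO SNI, so their counts follow in part from the filter. In dKO SNI against dKO sham, 53 of the 56 tested genes were called higher, where 23.8% of all tested genes were, and 1 was called lower, where 24.6% were. In WT SNI against WT sham, 36 of 56 were called higher, where 13.6% of all were, and 1 was called lower, where 9.38% were. The gene called lower was E2f1 in both. The median change of the tested genes was 1.13 in dKO and 0.70 in WT ganglia, while over all tested genes it was -0.00 in dKO and 0.07 in WT. Without the filter, 55 of 58 genes were called higher in dKO, where 17.7% of all were, and 29 of 58 in WT ganglia, where 7.93% were. The dKO SNI libraries lay wholly above those of dKO sham in 56 of 58 genes and wholly below in 1 (E2f1), where 37.7% of all tested genes lay above and 37.8% below. The WT SNI libraries lay wholly above those of WT sham in 50 of 58 genes and wholly below in 2 (E2f1 and Ccne1), where 39.8% of all tested genes lay above and 29.2% below. The WT count depended on single libraries: it was 16 without WT SNI 2, 19 without WT sham 1 and 25 without WT sham 2. In dKO ganglia it stayed between 50 and 53 with any library left out. Averaged over the genotypes, 52 of 56 genes were called higher after axotomy, where 29.5% of all were, and E2f1 was again called lower, where 25.5% were.

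The G1/S genes moved least and not together. Cyclin D1 (Ccnd1), which opens G1, measured 12.3 and 16.1 FPKM in dKO SNI, 7.61 and 9.77 in dKO sham, 6.89 and 9.49 in WT SNI, and 6.30 and 5.65 in WT sham, with dKO sham and WT SNI overlapping. It rose by 0.65 ± 0.19 in dKO ganglia (limma adjusted p = 0.0185), and its WT change of 0.38 ± 0.19 was not called (limma adjusted p = 0.165). Without dKO sham 1 the dKO change was 0.49 (limma adjusted p = 0.121), and without dKO SNI 2 it was 0.46 (limma adjusted p = 0.137). Cyclin E2 (Ccne2), a partner of Cdk2 at S-phase entry, measured 4.38 and 4.14 FPKM in dKO SNI, 1.49 and 1.65 in dKO sham, 1.81 and 2.98 in WT SNI, and 1.62 and 1.14 in WT sham. The dKO SNI libraries lay above all others for Ccne2, and its dKO rise was 1.04 ± 0.18 (limma adjusted p = 0.00175). Cyclin E1 (Ccne1) spanned 1.79 to 4.07 FPKM and was called in neither genotype. Its dKO SNI and dKO sham libraries overlapped, while the WT SNI libraries (1.79 and 2.33 FPKM) lay below those of WT sham (2.44 and 3.06 FPKM).

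E2f1, the activator of S-phase genes, ran against the rest. It measured 5.77 and 4.47 FPKM in dKO SNI, 9.18 and 8.16 in dKO sham, 7.13 and 5.38 in WT SNI, and 9.98 and 9.48 in WT sham. The injured libraries lay below the sham libraries in both genotypes, while dKO SNI and WT SNI overlapped. Its change was -0.67 ± 0.16 in dKO (limma adjusted p = 0.00804) and -0.57 ± 0.16 in WT ganglia (limma adjusted p = 0.0308). The dKO call was lost without dKO sham 1 (limma adjusted p = 0.0508) or dKO SNI 2 (limma adjusted p = 0.0671). The WT call was lost without the filter (limma adjusted p = 0.0658) and without WT sham 1, WT sham 2 or WT SNI 2 (limma adjusted p of 0.135, 0.12 and 0.211). Averaged over the genotypes the fall was kept under each of these, at -0.62 ± 0.11 (limma adjusted p = 0.00157) with all libraries.

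Origin licensing and helicase genes rose as a block in dKO ganglia. All 11 tested genes of this role were called higher in dKO SNI against dKO sham, with changes of 0.56 to 1.45. In WT SNI against WT sham 7 of 11 were called higher, with changes of -0.00 to 1.00. The shares of all tested genes called higher were 23.8% in dKO and 13.6% in WT ganglia. Without the filter the counts were 12 of 12 in dKO and 5 of 12 in WT ganglia, where 17.7% and 7.93% of all were. Mcm6, a subunit of the ring-shaped MCM helicase, measured 6.08 and 6.58 FPKM in dKO SNI, 2.10 and 2.68 in dKO sham, 2.98 and 3.28 in WT SNI, and 0.998 and 1.12 in WT sham. Its groups did not overlap, and it rose by 1.12 ± 0.14 in dKO (limma adjusted p = 0.000297) and 1.00 ± 0.14 in WT ganglia (limma adjusted p = 0.0014). Mcm7, another ring subunit, measured 11.6 and 10.5 FPKM in dKO SNI, 3.68 and 5.15 in dKO sham, 5.14 and 6.02 in WT SNI, and 2.79 and 3.02 in WT sham. The dKO sham and WT SNI libraries overlapped. Mcm7 rose by 1.17 ± 0.16 in dKO and by 0.75 ± 0.16 in WT ganglia (limma adjusted p = 0.000435 and 0.0095), and the WT call was lost without WT SNI 2 or WT sham 1 (limma adjusted p of 0.0747 and 0.0607).

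Mcm4 did not follow the other ring subunits in WT ganglia. It measured 6.95 and 5.98 FPKM in dKO SNI, 4.03 and 4.05 in dKO sham, 3.71 and 3.93 in WT SNI, and 3.71 and 3.96 in WT sham. The WT SNI and WT sham libraries covered the same range, and dKO SNI lay above all others. The WT change was -0.00 ± 0.13 (limma adjusted p = 0.988) and the dKO change 0.56 ± 0.13 (limma adjusted p = 0.00543). Cdc45, which joins MCM and GINS in the active helicase, measured 2.57 and 2.87 FPKM in dKO SNI, 1.06 and 1.15 in dKO sham, 1.35 and 1.44 in WT SNI, and 1.07 and 1.31 in WT sham. The sham libraries overlapped between genotypes. Cdc45 rose by 0.82 ± 0.13 in dKO ganglia (limma adjusted p = 0.00117), with a WT change of 0.13 ± 0.13 (limma adjusted p = 0.495) that became -0.06 after quantile normalization. Gins1, a GINS subunit, measured 4.27 and 4.12 FPKM in dKO SNI, 1.07 and 0.942 in dKO sham, 2.00 and 2.71 in WT SNI, and 0.996 and 0.987 in WT sham. The sham libraries of both genotypes shared a range, and Gins1 rose by 1.37 ± 0.14 in dKO and 0.75 ± 0.14 in WT ganglia (limma adjusted p = 0.000155 and 0.00678). Without WT SNI 2 the WT change was 0.59 (limma adjusted p = 0.0581).

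The other licensing genes had the same order of group means, highest in dKO SNI. Mcm5 averaged 7.79 ± 0.84 FPKM in dKO SNI, 2.23 ± 0.476 in dKO sham, 3.52 ± 0.662 in WT SNI and 1.38 ± 0.136 in WT sham (SD, n = 2 each). Mcm3 averaged 5.86 ± 0.729 FPKM in dKO SNI, 1.61 ± 0.779 in dKO sham, 2.61 ± 0.606 in WT SNI and 0.898 ± 0.35 in WT sham. Their changes were 1.45 for Mcm5 and 1.42 for Mcm3 in dKO, and 0.92 for Mcm5 and 0.93 for Mcm3 in WT ganglia, all called. Cdc6, the loader that brings MCM to the origin, averaged 1.77 ± 0.345 FPKM in dKO SNI, 0.502 ± 0.139 in dKO sham, 0.663 ± 0.277 in WT SNI and 0.103 ± 0.0136 in WT sham, so that dKO SNI alone passed 1 FPKM. Cdt1, its partner in loading, averaged 4.02 ± 0.755 FPKM in dKO SNI, 1.25 ± 0.95 in dKO sham, 1.63 ± 0.217 in WT SNI and 0.615 ± 0.176 in WT sham. It was called in dKO (1.22) and not in WT ganglia (0.71). Gins2, another GINS subunit, changed by 1.14 in dKO ganglia, with an uncalled 0.34 in WT. Mcm2 was called in both, at 0.81 in dKO and 0.52 in WT ganglia. Mcm10, a helicase activator outside the test, averaged 1.17 ± 0.438 FPKM in dKO SNI, 0.268 ± 0.00805 in dKO sham, 0.459 ± 0.0759 in WT SNI and 0.171 ± 0.0733 in WT sham.

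Nucleotide supply and DNA synthesis genes were called higher in 7 of 8 cases in dKO ganglia and in 4 of 8 cases in WT ganglia. Their changes were 0.36 to 2.00 in dKO and -0.11 to 1.74 in WT. Over all tested genes 23.8% were called higher in dKO and 13.6% in WT ganglia. Without the filter the counts were 7 of 8 in dKO and 2 of 8 in WT ganglia, where 17.7% and 7.93% of all were. Rrm2, the S-phase subunit of ribonucleotide reductase, measured 17.9 and 14.8 FPKM in dKO SNI, 3.18 and 3.45 in dKO sham, 3.99 and 7.39 in WT SNI, and 0.570 and 1.38 in WT sham. No groups overlapped. Rrm2 had the largest change of the replication set in both genotypes, 2.00 ± 0.26 in dKO (limma adjusted p = 0.000359) and 1.74 ± 0.26 in WT ganglia (limma adjusted p = 0.00209). Rrm1, the other subunit of that enzyme, measured 13.8 and 13.5 FPKM in dKO SNI, 6.47 and 6.34 in dKO sham, 7.47 and 10.5 in WT SNI, and 5.13 and 5.12 in WT sham, again with no overlap. The ratio of group means was 4.93 for Rrm2 and 2.12 for Rrm1 in dKO, and 5.84 for Rrm2 and 1.75 for Rrm1 in WT ganglia.

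Pcna, the sliding clamp of DNA polymerases, was the most abundant of the 58 genes. It measured 73.4 and 70.4 FPKM in dKO SNI, 32.8 and 38.6 in dKO sham, 39.2 and 50.6 in WT SNI, and 34.0 and 27.5 in WT sham. The dKO sham and WT sham libraries overlapped, and the dKO SNI libraries lay above all others. Pcna rose by 0.99 ± 0.17 in dKO (limma adjusted p = 0.00141) and 0.53 ± 0.17 in WT ganglia (limma adjusted p = 0.0482). The WT call of Pcna was lost when any library but WT SNI 1 was left out (limma adjusted p of 0.0533 to 0.311), without the filter (0.0811), after median centring (0.0606) and when the fit held only the groups compared (0.0607). Rrm1 was called in WT ganglia (limma adjusted p = 0.012) but not without WT sham 1, WT sham 2 or WT SNI 2 (0.0619, 0.0729 and 0.0883 by limma). Fen1, which trims the flaps of lagging-strand fragments, was called in neither genotype, at 4.92 to 8.64 FPKM over the libraries. Uhrf1, which carries DNA methylation through replication, averaged 5.93 ± 1.35 FPKM in dKO SNI, 1.24 ± 0.685 in dKO sham, 2.02 ± 0.656 in WT SNI and 0.41 ± 0.274 in WT sham (SD, n = 2 each). It was called in both genotypes, at 1.65 in dKO and 1.09 in WT ganglia. Tyms (0.86), which makes thymidylate, Tk1 (0.88), which salvages thymidine, and Chaf1b (0.79), of the histone chaperone CAF-1, were called in dKO ganglia. Their WT changes of 0.34 for Tyms, 0.28 for Tk1 and 0.27 for Chaf1b were not called.

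**Figure D2:**
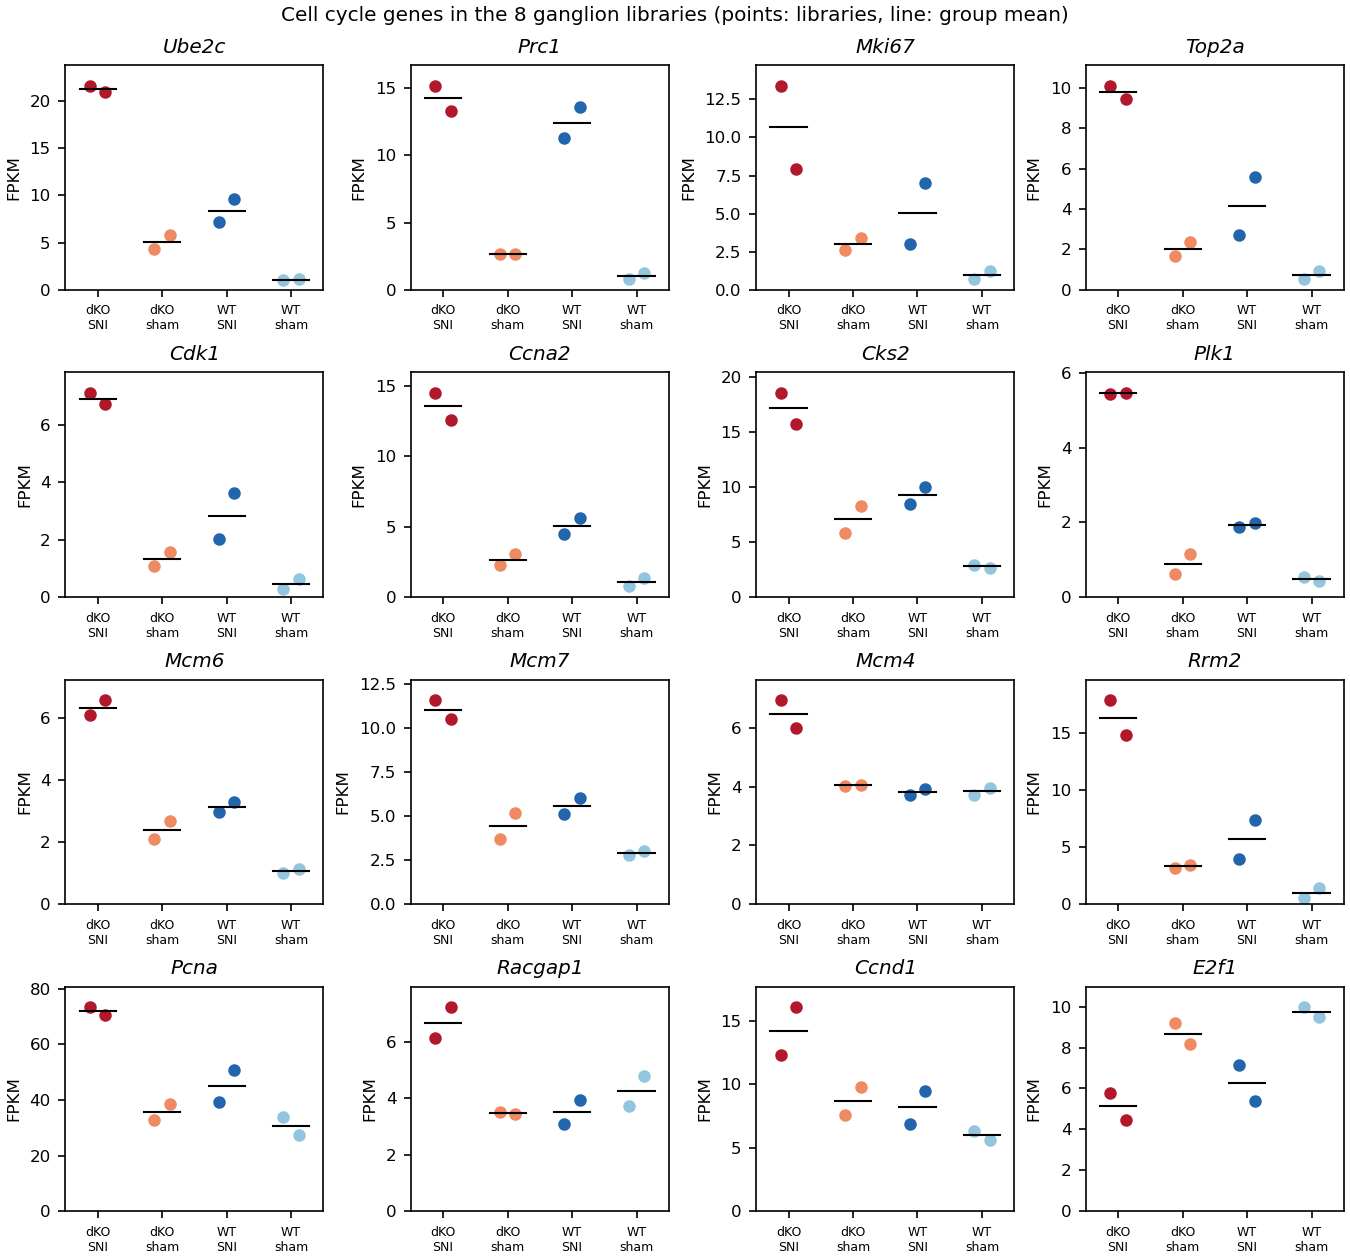
Each panel gives 1 gene in FPKM, with a point per library, a line at the group mean and an axis from 0, in the order dKO SNI, dKO sham, WT SNI and WT sham. Ube2c, Rrm2 and Ccna2 are highest in dKO SNI and lowest in WT sham, Mcm4 is highest in dKO SNI (6.95 and 5.98 FPKM), Prc1 overlaps between dKO SNI (15.2 and 13.3 FPKM) and WT SNI (11.3 and 13.6 FPKM), and E2f1 runs the other way.

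The kinases, cyclins and phosphatases of mitotic entry were called higher in 10 of 10 tested cases in dKO and in 9 of 10 in WT ganglia. Their changes were 0.84 to 2.00 in dKO and 0.43 to 1.65 in WT. Among all tested genes 23.8% were called higher in dKO and 13.6% in WT ganglia. Without the filter the counts were 11 of 11 in dKO and 8 of 11 in WT ganglia, where 17.7% and 7.93% of all were. Cdk1, the kinase that starts mitosis, measured 7.12 and 6.72 FPKM in dKO SNI, 1.07 and 1.57 in dKO sham, 2.03 and 3.63 in WT SNI, and 0.287 and 0.621 in WT sham. Its groups did not overlap, and it rose by 1.78 ± 0.21 in dKO (limma adjusted p = 0.00027) and 1.37 ± 0.21 in WT ganglia (limma adjusted p = 0.00272). Cyclin A2 (Ccna2), its partner in S and G2 phase, measured 14.5 and 12.6 FPKM in dKO SNI, 2.26 and 3.04 in dKO sham, 4.49 and 5.64 in WT SNI, and 0.809 and 1.35 in WT sham. No groups overlapped, and the change was 2.00 ± 0.18 in dKO and 1.55 ± 0.18 in WT ganglia (limma adjusted p = 8.52e-05 and 0.000644). Plk1, a kinase of mitotic entry and spindle poles, measured 5.45 and 5.48 FPKM in dKO SNI, 0.625 and 1.16 in dKO sham, 1.87 and 1.98 in WT SNI, and 0.527 and 0.429 in WT sham. Its groups were apart as well, and it rose by 1.79 ± 0.16 in dKO and 0.99 ± 0.16 in WT ganglia (limma adjusted p = 8.27e-05 and 0.00302).

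The small Cdk-binding proteins Cks1b and Cks2 were the most abundant genes of mitotic entry. Cks1b measured 19.9 and 24.3 FPKM in dKO SNI, 7.44 and 9.62 in dKO sham, 10.1 and 11.7 in WT SNI, and 5.68 and 4.67 in WT sham. Cks2 measured 18.6 and 15.8 FPKM in dKO SNI, 5.86 and 8.31 in dKO sham, 8.49 and 10.0 in WT SNI, and 2.90 and 2.65 in WT sham. Neither had overlapping groups. Cks1b rose by 1.28 ± 0.17 in dKO and 0.95 ± 0.17 in WT ganglia (limma adjusted p = 0.000369 and 0.00433), and Cks2 by 1.18 ± 0.17 in dKO and 1.44 ± 0.17 in WT ganglia (limma adjusted p = 0.000601 and 0.000683). Foxm1, the factor that acts on many mitosis genes, was at 2.92 and 3.08 FPKM in dKO SNI, 0.928 and 1.13 in dKO sham, 1.73 and 1.54 in WT SNI, and 0.350 and 0.819 in WT sham, and its groups did not overlap. Cyclin B1 (Ccnb1), the partner of Cdk1 in mitosis, averaged 5.52 ± 0.983 FPKM in dKO SNI, 1.07 ± 0.587 in dKO sham, 2.04 ± 0.991 in WT SNI and 0.252 ± 0.00457 in WT sham (SD, n = 2 each). Cyclin B2 (Ccnb2), its relative, averaged 8.65 ± 1.73 FPKM in dKO SNI, 1.85 ± 0.354 in dKO sham, 4.06 ± 1.81 in WT SNI and 0.609 ± 0.542 in WT sham. Both were called in both genotypes, Ccnb1 at 1.68 in dKO and 1.24 in WT, and Ccnb2 at 1.75 in dKO and 1.65 in WT ganglia. Aurka, a spindle pole kinase, was called as well, at 0.98 in dKO and 0.54 in WT ganglia. Cdc25b, a phosphatase that activates Cdk1, was called in dKO (0.84) and not in WT ganglia (0.43). Its relative Cdc25c, outside the test, averaged 0.693 ± 0.137 FPKM in dKO SNI, 0.226 ± 0.0956 in dKO sham, 0.168 ± 0.156 in WT SNI and 0.0596 ± 0.057 in WT sham.

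Checkpoint, kinetochore and anaphase genes were called higher in 14 of 14 cases in dKO and in 9 of 14 in WT ganglia. Changes ran from 0.67 to 2.21 in dKO and 0.32 to 2.19 in WT. The shares over all tested genes were 23.8% in dKO and 13.6% in WT ganglia. Without the filter the counts for this role were 14 of 14 in dKO and 7 of 14 in WT ganglia, where 17.7% and 7.93% of all were. Ube2c, which feeds ubiquitin to the anaphase-promoting complex, was the most abundant gene of this role. It measured 21.6 and 20.9 FPKM in dKO SNI, 4.29 and 5.79 in dKO sham, 7.20 and 9.58 in WT SNI, and 0.989 and 1.09 in WT sham, with no overlap between any groups. It rose by 1.89 ± 0.16 in dKO (limma adjusted p = 7.66e-05) and by 2.19 ± 0.16 in WT ganglia (limma adjusted p = 6.07e-05), ratios of group means of 4.22 in dKO and 8.08 in WT. Cenpa, the histone that marks centromeres, measured 8.19 and 7.56 FPKM in dKO SNI, 0.694 and 1.16 in dKO sham, 1.58 and 2.86 in WT SNI, and 0.723 and 0.510 in WT sham. The sham libraries overlapped between genotypes, and the ratio of group means was 8.48 in dKO and 3.61 in WT ganglia. Cenpa rose by 2.21 ± 0.20 in dKO (limma adjusted p = 9.39e-05) and 0.97 ± 0.20 in WT ganglia (limma adjusted p = 0.01), the WT call being lost without WT sham 2 or WT SNI 2 (0.0711 and 0.0722 by limma).

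Mad2l1, the checkpoint protein that holds back anaphase, moved less. It measured 7.36 and 8.89 FPKM in dKO SNI, 4.24 and 4.43 in dKO sham, 4.52 and 5.47 in WT SNI, and 3.03 and 3.58 in WT sham. Its groups did not overlap, and its rise was 0.77 ± 0.14 in dKO (limma adjusted p = 0.00243) and 0.48 ± 0.14 in WT ganglia (limma adjusted p = 0.0426). The WT call was lost without WT sham 1 (limma adjusted p = 0.216), WT sham 2 (0.103) or WT SNI 2 (0.245), without either dKO sham library (0.0521 and 0.0517), without the filter (0.0787), and after median centring (0.0634) or quantile normalization (0.104). Genes near the filter, such as Bub1 (0.141 to 1.75 FPKM) and Ttk (0.136 to 1.33 FPKM), kinases of the spindle checkpoint, were called in dKO and not in WT ganglia.

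The chromosomal passenger complex, which corrects attachments of chromosomes to the spindle, is built on the kinase Aurkb with Birc5 and Cdca8. Aurkb averaged 3.47 ± 0.0244 FPKM in dKO SNI, 0.597 ± 0.398 in dKO sham, 0.961 ± 0.317 in WT SNI and 0.311 ± 0.145 in WT sham (SD, n = 2 each). Birc5 averaged 4.62 ± 0.308 FPKM in dKO SNI, 1.02 ± 0.117 in dKO sham, 1.64 ± 0.461 in WT SNI and 0.503 ± 0.108 in WT sham. Cdca8 averaged 5.92 ± 1.75 FPKM in dKO SNI, 1.66 ± 0.481 in dKO sham, 2.45 ± 1.16 in WT SNI and 1.07 ± 0.242 in WT sham. Aurkb (1.51), Birc5 (1.47) and Cdca8 (1.37) were called in dKO ganglia, and Birc5 (0.80) but neither Aurkb (0.58) nor Cdca8 (0.70) in WT. Of the NDC80 complex, which ties kinetochores to microtubules, Ndc80 was called at 1.43 in dKO and 0.57 in WT, and Nuf2 at 0.97 in dKO and 0.74 in WT ganglia. Cdc20, the activator of the anaphase-promoting complex, averaged 4.66 ± 0.0789 FPKM in dKO SNI, 1.32 ± 0.078 in dKO sham, 1.42 ± 0.661 in WT SNI and 0.285 ± 0.173 in WT sham, and was called at 1.29 in dKO and 0.89 in WT ganglia. Bub1b, of the checkpoint, was called at 1.00 in dKO and 0.82 in WT, and Cenpe, the kinetochore motor protein, at 0.81 in dKO and 0.61 in WT ganglia. Cenpf, a kinetochore protein, was called in dKO (0.67) and not in WT ganglia (0.44).

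Genes of chromosomes, spindle and cytokinesis were called higher in 9 of 9 cases in dKO and 7 of 9 in WT ganglia, also without the filter. The shares of all genes were 23.8% in dKO and 13.6% in WT ganglia, and 17.7% and 7.93% without the filter. Changes of this role were 0.68 to 2.07 in dKO and -0.22 to 2.72 in WT. This role held both the largest averaged rise, that of Prc1 (2.39 ± 0.11, limma adjusted p = 1.55e-06), and an exception. Prc1, which bundles the midzone microtubules of the dividing cell, measured 15.2 and 13.3 FPKM in dKO SNI, 2.64 and 2.64 in dKO sham, 11.3 and 13.6 in WT SNI, and 0.832 and 1.27 in WT sham. It rose by 2.07 ± 0.15 in dKO (limma adjusted p = 4.54e-05) and by 2.72 ± 0.15 in WT ganglia (limma adjusted p = 1.46e-05), the largest WT change of the tested genes, and its 2 injured groups overlapped. Mki67, the coat protein of mitotic chromosomes used to stain cycling cells, measured 13.4 and 7.92 FPKM in dKO SNI, 2.61 and 3.37 in dKO sham, 3.03 and 7.0 in WT SNI, and 0.726 and 1.23 in WT sham. The dKO sham and WT SNI libraries overlapped. Mki67 rose by 1.52 ± 0.32 in dKO and 1.53 ± 0.32 in WT ganglia (limma adjusted p = 0.00427 and 0.00959), and the WT call was lost without WT sham 1 or WT SNI 2 (0.0565 and 0.0609 by limma). Top2a, the topoisomerase that untangles sister chromatids, measured 10.1 and 9.44 FPKM in dKO SNI, 1.66 and 2.37 in dKO sham, 2.73 and 5.57 in WT SNI, and 0.548 and 0.940 in WT sham. Its groups did not overlap, and it rose by 1.85 ± 0.25 in dKO and 1.51 ± 0.25 in WT ganglia (limma adjusted p = 0.000442 and 0.00337).

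Racgap1, which with Ect2 positions the contractile ring, was the exception. It measured 6.14 and 7.24 FPKM in dKO SNI, 3.52 and 3.44 in dKO sham, 3.10 and 3.93 in WT SNI, and 3.73 and 4.78 in WT sham. The WT SNI and WT sham libraries overlapped, with a change of -0.22 ± 0.15 (limma adjusted p = 0.332), and Racgap1 rose by 0.78 ± 0.15 in dKO ganglia (limma adjusted p = 0.00315). Cdca3, a trigger of mitotic entry, measured 9.50 and 7.88 FPKM in dKO SNI, 1.89 and 2.04 in dKO sham, 2.42 and 4.07 in WT SNI, and 1.06 and 1.13 in WT sham. Its groups did not overlap, and it rose by 1.70 ± 0.19 in dKO and 0.99 ± 0.19 in WT ganglia (limma adjusted p = 0.00018 and 0.00591). Nusap1, a microtubule bundler of the spindle, averaged 7.43 ± 0.616 FPKM in dKO SNI, 1.65 ± 0.642 in dKO sham, 2.88 ± 1.12 in WT SNI and 0.532 ± 0.149 in WT sham (SD, n = 2 each), and was called at 1.69 in dKO and 1.31 in WT ganglia. Tpx2, which nucleates spindle microtubules, was called at 1.26 in dKO and 0.86 in WT, and Anln, a scaffold of the contractile ring, at 0.68 in dKO and 0.46 in WT ganglia. Ect2 averaged 1.93 ± 0.0244 FPKM in dKO SNI, 0.453 ± 0.0793 in dKO sham, 1.02 ± 0.34 in WT SNI and 0.462 ± 0.00666 in WT sham, and was called in dKO (1.01) but not in WT ganglia (0.45). The calls of Mcm6, Rrm2, Cdk1, Ccna2, Plk1, Cks1b, Cks2, Ube2c, Top2a, Prc1 and Cdca3 after axotomy held in both genotypes whichever library was left out. Of the genes given by their means or changes, Mcm2, Mcm3, Cdc6, Uhrf1, Aurka, Foxm1, Nuf2, Ndc80, Cenpe, Cdc20, Birc5 and Anln lost their WT call without WT sham 1 (limma adjusted p of 0.0542 to 0.216 over all calls lost). Mcm2, Cdc6, Aurka, Nuf2, Ndc80, Cenpe and Anln lost it without WT sham 2 (0.0692 to 0.311 by limma). Mcm2, Mcm3, Cdc6, Uhrf1, Ccnb1, Aurka, Foxm1, Bub1b, Nuf2, Ndc80, Cenpe, Birc5 and Anln lost it without WT SNI 2 (0.0502 to 0.297 by limma). Aurka also lost it without WT SNI 1, and Ndc80 without either dKO SNI library. In dKO ganglia Chaf1b lost its call without dKO sham 2, dKO SNI 1 or dKO SNI 2, and Tk1 without dKO SNI 2.

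**Figure D3:**
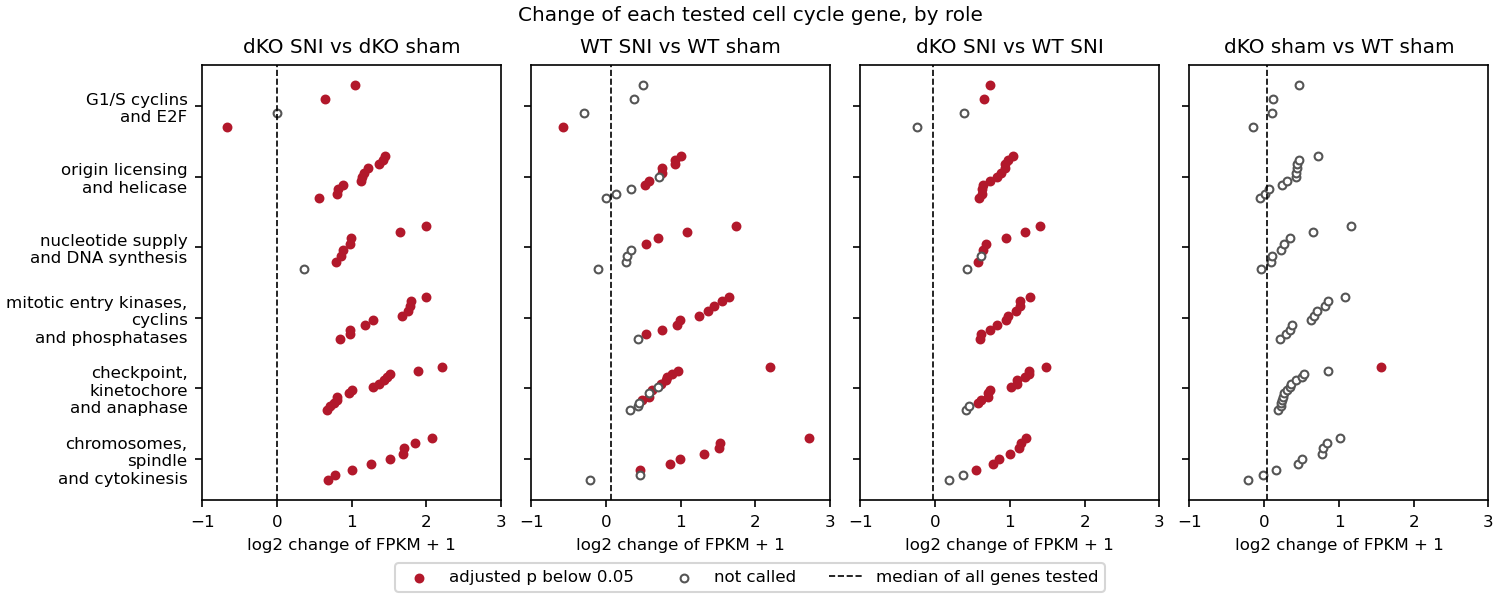
Each point is a tested gene, placed by its log2 change of FPKM + 1 and grouped by role, in 4 comparisons; filled points passed the adjusted p of 0.05 in limma and the dashed line is the median of all tested genes. In dKO SNI against dKO sham nearly all points are filled and lie right of the line, and in dKO sham against WT sham 1 point (Ube2c, 1.56) is filled.

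The dKO and WT groups were compared at each surgery. Among injured ganglia, 48 of 56 tested genes were called higher in dKO SNI than in WT SNI, where 10.7% of all tested genes were, and 0 were called lower, where 13.4% were. Their median change was 0.80, against -0.03 over all tested genes, and the libraries of the groups did not overlap in 56 of 58 genes, all of them higher, where 30.8% of all tested genes were apart and higher and 37.4% apart and lower. Without the filter, 35 of 58 were called higher, where 4.92% of all were. Cenpa (1.49 ± 0.20), Rrm2 (1.41 ± 0.26), Ccna2 (1.27 ± 0.18), Ube2c (1.26 ± 0.16) and Cdc20 (1.25 ± 0.19) had the largest changes. Pcna differed by 0.68 ± 0.17, Mcm6 by 0.83 ± 0.14 and Mki67 by 1.00 ± 0.32. The 8 genes not called were Anln, Ccne1, Cenpe, Cenpf, Chaf1b, E2f1, Fen1 and Prc1, with Prc1 at 0.18 ± 0.15 (limma adjusted p = 0.387).

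These calls depended on 2 libraries. Without dKO SNI 2 the count of genes called higher in dKO SNI than in WT SNI was 0, with limma adjusted p of 0.067 to 0.177 and a median change of 0.84. Without WT SNI 1 it was 1 (Cdc20), the lost calls having limma adjusted p of 0.0741 to 0.311 and the median change being 0.62. Without dKO SNI 1 it was 31, and without any other library it was 44 to 47. The sizes of the changes thus moved less than the calls. The call of Mki67 (limma adjusted p = 0.049) was also lost with a pseudocount of 0.1 (0.0668), without the filter (0.12) and when the fit held only the groups compared (0.0678).

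Among sham ganglia, 1 of the 56 tested genes, Ube2c, was called higher in the dKO group, where 0.0931% of all tested genes were, and 0 were called lower, where 0.0621% were. Without the filter 0 of 58 were called higher, where 0.00557% of all were. It changed by 1.56 ± 0.16 (limma adjusted p = 0.00599), a ratio of group means of 4.86, and the call was lost without dKO sham 2 (change 1.38, limma adjusted p = 0.0675) and without the filter (0.0759). The next smallest p-values were those of Cks2, at 1.08 ± 0.17 (limma adjusted p = 0.0556), and Prc1, at 0.84 ± 0.15 (limma adjusted p = 0.083). At an unadjusted p below 0.05, 24 of 56 genes passed, where 10.8% of all tested genes did. The libraries of dKO sham lay above those of WT sham in 42 of 58 genes, where 27.8% of all tested genes did so, and below them in 2 (E2f1 and Racgap1), where 18.3% did, and the median change was 0.35, against 0.04 over all tested genes. Averaged over the surgeries, 45 of 56 genes were called higher in dKO than in WT ganglia, where 11.8% of all were, and 0 lower, where 10.4% were. That count was 29 of 58 without the filter, where 3.58% of all were called, and between 19 and 49 with a library left out, the lowest values being 19 without dKO sham 2, 20 without WT SNI 1, 28 without WT sham 2 and 29 without dKO SNI 2.

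With its sign kept, the injury change in log2(FPKM + 1) was higher in dKO than in WT ganglia for 51 of 56 tested genes. That held for 39.9% of all tested genes, and the difference was called for none of the 56. By limma, 0 of the 56 genes passed the adjusted threshold in this test, where 0.0543% of all tested genes did, and 14 passed an unadjusted p of 0.05, where 14.5% of all did. The smallest p-values were those of Cenpa at 1.24 ± 0.29 (limma adjusted p = 0.21), Racgap1 at 0.99 ± 0.22 (limma adjusted p = 0.209) and Cdc45 at 0.69 ± 0.19 (limma adjusted p = 0.239). The signed change was lower in dKO than in WT for Prc1, Ube2c, Cks2, Mki67 and E2f1, of which E2f1 had the larger fall in dKO (-0.67, against -0.57 in WT). The count of 51 depends on this scale, which compresses changes of genes under 1 FPKM, and WT sham levels were mostly the lowest. By ratio of group means, further genes rose more in WT ganglia, Ccnb1, Ccnb2, Cdk1, Top2a and Rrm2 among them. The median ratio over all 58 genes was 3.26 in dKO and 2.77 in WT ganglia. Across the 56 genes the changes in the genotypes had a Pearson r of 0.848, against 0.825 across all tested genes. Genes are not independent replicates and share the same libraries, so this is a description. Because of the Y-linked transcripts, this difference of responses cannot be told apart from that split of the libraries.

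**Figure D4:**
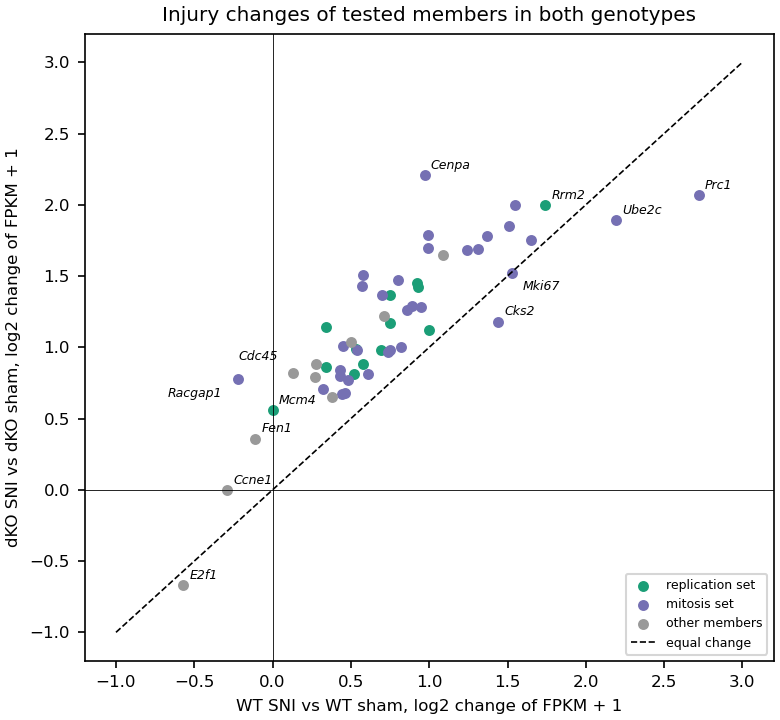
Each point is a tested gene, with its change in WT SNI against WT sham on the horizontal axis and its change in dKO SNI against dKO sham on the vertical axis, both as log2 of FPKM + 1. Points above the dashed line of equal change had the higher signed change in dKO on this scale, which compresses changes of genes under 1 FPKM. Cenpa (2.21 in dKO, 0.97 in WT) lies farthest above the line and Prc1 (2.07 in dKO, 2.72 in WT) farthest below.

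The replication and mitosis sets differed in size of change more than in direction. Replication genes summed to 164 and 154 FPKM in dKO SNI, 61.3 and 72.6 in dKO sham, 76.5 and 99.2 in WT SNI, and 54.8 and 49.2 in WT sham. Mitosis genes summed to 245 and 224 FPKM in dKO SNI, 60.7 and 75.5 in dKO sham, 92.4 and 129 in WT SNI, and 34.0 and 38.9 in WT sham. Relative to the WT sham mean, the median replication gene stood at 4.67 and 4.68 times in dKO SNI, 1.26 and 1.57 times in dKO sham, and 1.92 and 2.81 times in WT SNI. The median mitosis gene stood at 8.64 and 7.83 times in dKO SNI, 2.02 and 2.15 times in dKO sham, and 2.56 and 3.86 times in WT SNI. The mitosis ratio was above the replication ratio in each of these 6 libraries.

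After axotomy in dKO ganglia, 33 of 33 tested mitosis genes and 13 of 13 tested replication genes were called higher. The share of all tested genes called higher was 23.8%. In WT ganglia these counts were 25 of 33 and 10 of 13, where 13.6% of all tested genes were called higher. Without the filter 34 of 34 mitosis and 14 of 14 replication genes were called higher in dKO, where 17.7% of all were. In WT ganglia the counts without the filter were 22 of 34 and 7 of 14, where 7.93% of all were. The other 10 genes gave 7 higher in dKO and 1 in WT ganglia, with E2f1 lower in both. For these 10 the WT result was near the shares of all tested genes, 13.6% higher and 9.38% lower. In dKO ganglia 23.8% of all tested genes were called higher and 24.6% lower. Without the filter 7 of 10 were called higher in dKO and 0 of 10 in WT ganglia, where 17.7% and 7.93% of all were. The median change of mitosis genes was 1.29 in dKO and 0.82 in WT ganglia, and that of replication genes 1.12 in dKO and 0.69 in WT ganglia. Averaged over the genotypes, the median of the mitosis genes was 1.06 and that of the replication genes 0.83, a gap of 0.22 computed before rounding. With a pseudocount of 0.1 and no filter, which compress low genes less, the medians were 1.59 and 1.39. In dKO SNI against WT SNI, 29 of 33 mitosis genes and 13 of 13 replication genes were called higher, with medians of 0.95 and 0.74. The share of all tested genes was 10.7% there. Without the filter the counts were 22 of 34 and 10 of 14, where 4.92% of all were. Cdc6 and Tyms of the replication set and Bub1, Ttk and Cenpf of the mitosis set entered the test only through dKO SNI. In dKO sham against WT sham the medians were 0.43 for mitosis and 0.30 for replication genes. No test was made between the sets, since their genes are not replicates, and the median level of a mitosis gene in WT sham (0.537 and 0.729 FPKM) was below that of a replication gene (1.14 and 1.26 FPKM).

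Further genes of the pathway, taken from lists of replication, mitosis, G1 and brake genes that hold none of the 58, were tested in the same fit. Of the 35 tested mitosis genes, 8 (Espl1, Sgol1, Melk, Nek2, Ska1, Ska3, Depdc1a and Fam64a) reached 1 FPKM only in dKO SNI and so passed the filter only where they were high, while none of the 35 tested replication genes did. In dKO SNI against dKO sham, 28 of 35 other mitosis genes were called higher and 1 lower, and 16 of 35 other replication genes were called higher and 1 lower, where 23.8% of all tested genes were called higher and 24.6% lower. Without the filter these counts of higher genes were 31 of 40 for mitosis and 19 of 40 for replication, where 17.7% of all were. In WT SNI against WT sham, 12 of 35 other mitosis genes were called higher and 0 lower, where 13.6% of all tested genes were called higher. In that comparison 4 of 35 other replication genes were called higher and 1 lower, a share of higher genes no greater than that of all genes. The median changes were 0.83 for mitosis and 0.36 for replication genes in dKO, and 0.46 for mitosis and 0.11 for replication genes in WT ganglia. In dKO SNI against WT SNI, 23 of 35 other mitosis genes and 7 of 35 other replication genes were called higher, where 10.7% of all were, and without the filter 22 of 40 and 6 of 40, where 4.92% of all were. These lists were not tested again with a library left out. In dKO sham against WT sham 0 of either list were called.

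Dlgap5, a spindle protein, measured 2.06 and 2.55 FPKM in dKO SNI, 0.369 and 0.480 in dKO sham, 0.700 and 1.15 in WT SNI, and 0.137 and 0.0737 in WT sham. Smc2, a core subunit of condensin, measured 5.41 and 4.82 FPKM in dKO SNI, 2.01 and 2.00 in dKO sham, 2.17 and 3.03 in WT SNI, and 1.12 and 1.15 in WT sham. Orc6, of the origin recognition complex, measured 15.2 and 16.6 FPKM in dKO SNI, 8.49 and 7.89 in dKO sham, 9.57 and 11.0 in WT SNI, and 6.58 and 6.46 in WT sham. All were called higher after axotomy in both genotypes. Rnaseh2b, a subunit of RNase H2, measured 11.6 and 13.1 FPKM in dKO SNI, 6.55 and 8.32 in dKO sham, 9.19 and 8.71 in WT SNI, and 4.39 and 4.05 in WT sham, and was called higher after axotomy in both genotypes as well.

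Of 21 other genes for G1 cyclins, their kinases and the E2F, retinoblastoma and MuvB families, 12 were called higher and 1 lower in dKO ganglia, and 11 higher and 0 lower in WT ganglia. Of all tested genes, 23.8% were called higher and 24.6% lower in dKO, and 13.6% higher and 9.38% lower in WT ganglia. Without the filter 11 of 22 were called higher in dKO and 10 of 22 in WT ganglia, where 17.7% and 7.93% of all were. Mybl2, which encodes B-MYB, passed the filter only through dKO SNI. Cdk2, the kinase partner of cyclins E and A, measured 6.98 and 5.55 FPKM in dKO SNI, 1.51 and 1.60 in dKO sham, 2.29 and 2.86 in WT SNI, and 0.897 and 1.42 in WT sham. E2f8, a repressor of the E2F family, measured 3.42 and 3.36 FPKM in dKO SNI, 0.523 and 0.750 in dKO sham, 1.04 and 1.34 in WT SNI, and 0.113 and 0.333 in WT sham. Both rose with the S-phase genes while E2f1 fell: Cdk2 by 1.50 ± 0.17 in dKO and 0.73 ± 0.17 in WT (limma adjusted p = 0.000197 and 0.0145), and E2f8 by 1.43 ± 0.16 in dKO and 0.84 ± 0.16 in WT ganglia (limma adjusted p = 0.000182 and 0.00567). Other E2F genes were mixed. E2f2 rose by 1.44 ± 0.25 in dKO and 0.79 ± 0.25 in WT ganglia (limma adjusted p = 0.00157 and 0.0483). E2f4 was called higher (0.43) and E2f6 lower (-0.51) in dKO ganglia only. E2f3 and E2f5 were called in neither genotype.

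Brakes of the cycle rose in the same libraries. Of 12 inhibitors and brakes, 10 were called higher in dKO SNI against dKO sham and 6 in WT SNI against WT sham, with 0 lower in both. Of all tested genes, 23.8% were called higher in dKO and 13.6% in WT ganglia. Without the filter 9 of 12 were called higher in dKO and 5 of 12 in WT ganglia, where 17.7% and 7.93% of all were. Gadd45a, a stress-induced growth arrest gene, measured 102 and 88.7 FPKM in dKO SNI, 20.8 and 22.4 in dKO sham, 140 and 93.9 in WT SNI, and 18.9 and 18.3 in WT sham. Cdkn1a, which encodes the kinase inhibitor p21, measured 122 and 95.6 FPKM in dKO SNI, 43.6 and 45.0 in dKO sham, 164 and 136 in WT SNI, and 45.0 and 39.9 in WT sham. Neither was called higher in dKO SNI than in WT SNI, with changes of -0.27 ± 0.18 for Gadd45a (limma adjusted p = 0.302) and -0.47 ± 0.16 for Cdkn1a (limma adjusted p = 0.0638). Of the 12 brakes, 3 were called higher in dKO SNI than in WT SNI, where 10.7% of all tested genes were, and 0 lower. These were the Cdk inhibitor genes Cdkn2a at 1.22 ± 0.30 (limma adjusted p = 0.0226), Cdkn1c at 0.97 ± 0.30 (limma adjusted p = 0.0418) and Cdkn2c at 0.96 ± 0.18 (limma adjusted p = 0.0113).

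Markers of some, not all, cell types that divide or arrive in an injured ganglion were highest in dKO SNI as well. The 12 macrophage markers summed to 675 and 802 FPKM in dKO SNI, 75.6 and 108 in dKO sham, 408 and 416 in WT SNI, and 66.0 and 47.6 in WT sham. After axotomy 12 of 12 were called higher in each genotype, where 23.8% of all tested genes were in dKO and 13.6% in WT ganglia. The 5 primary granule genes of immature neutrophils summed to 225 and 226 FPKM in dKO SNI, 26.9 and 29.0 in dKO sham, 52.4 and 72.0 in WT SNI, and 12.8 and 17.1 in WT sham. Those 5 were all called higher in dKO SNI than in WT SNI, as were 8 of 12 macrophage markers, where 10.7% of all tested genes were. Mature neutrophil genes summed to 6930 and 6740 FPKM in dKO SNI, 675 and 1100 in dKO sham, 1230 and 2460 in WT SNI, and 701 and 943 in WT sham. Of these, 8 of 8 were called higher after axotomy in dKO and 4 of 8 in WT ganglia, where 23.8% and 13.6% of all were.

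Erythroid markers summed to 7860 and 3170 FPKM in dKO SNI, 2060 and 5300 in dKO sham, 2020 and 5250 in WT SNI, and 1380 and 1300 in WT sham. Within dKO SNI, dKO sham and WT SNI the libraries differed by more in this sum than in the mitosis sum. Of the 10 erythroid markers, 3 were called higher after axotomy in dKO and 4 in WT ganglia, with Car1 and Klf1 called in both. Of all tested genes, 23.8% were called higher in dKO and 13.6% in WT ganglia. Averaged over the genotypes, 7 of the 10 were called higher, where 29.5% of all were. Fibroblast markers summed to 1040 and 1320 FPKM in dKO SNI, 420 and 528 in dKO sham, 543 and 831 in WT SNI, and 280 and 191 in WT sham. Of these, 5 of 7 were called higher after axotomy in dKO and 6 of 7 in WT ganglia, where 23.8% and 13.6% of all were. Satellite glia markers summed to 664 and 685 FPKM in dKO SNI, 491 and 507 in dKO sham, 535 and 560 in WT SNI, and 391 and 387 in WT sham. The macrophage, granule, fibroblast and satellite glia sums all had the group order of the mitosis sum with no overlap between groups. Of the 6 satellite glia markers, however, 1 was called higher and 2 lower after axotomy in dKO, and 2 higher and 1 lower in WT ganglia. Of all tested genes, 23.8% were called higher and 24.6% lower in dKO, and 13.6% higher and 9.38% lower in WT ganglia. Endothelial markers summed to 52.4 and 56.2 FPKM in dKO SNI, 34.2 and 36.4 in dKO sham, 33.8 and 38.7 in WT SNI, and 31.8 and 28.6 in WT sham, highest in dKO SNI. After axotomy 4 of 7 were called higher in dKO and 2 of 7 in WT ganglia, where 23.8% and 13.6% of all were. Schwann cell markers lay between 2200 and 4570 FPKM, highest in a dKO sham library. After axotomy 1 of 8 was called higher in dKO and 2 of 8 in WT ganglia, where 23.8% and 13.6% of all were. B and T cell markers summed to 16.5 and 9.91 FPKM in dKO SNI, 4.93 and 9.02 in dKO sham, 6.82 and 10.0 in WT SNI, and 0.929 and 1.51 in WT sham. Of their 3 tested genes, 0 were called higher after axotomy in dKO and 3 in WT ganglia, where 23.8% and 13.6% of all were. Sensory neuron markers, which mark the labelled tissue, were at 3110 and 2170 FPKM in dKO SNI, 3810 and 4230 in dKO sham, 4780 and 3880 in WT SNI, and 4300 and 4430 in WT sham. Of these 9 markers, 7 were called lower after axotomy in dKO and 5 in WT ganglia, where 24.6% and 9.38% of all were. The markers of every list measured at least 0.1 FPKM in some library. The part of these cell types in the cell cycle result was not tested.

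**Figure D5:**
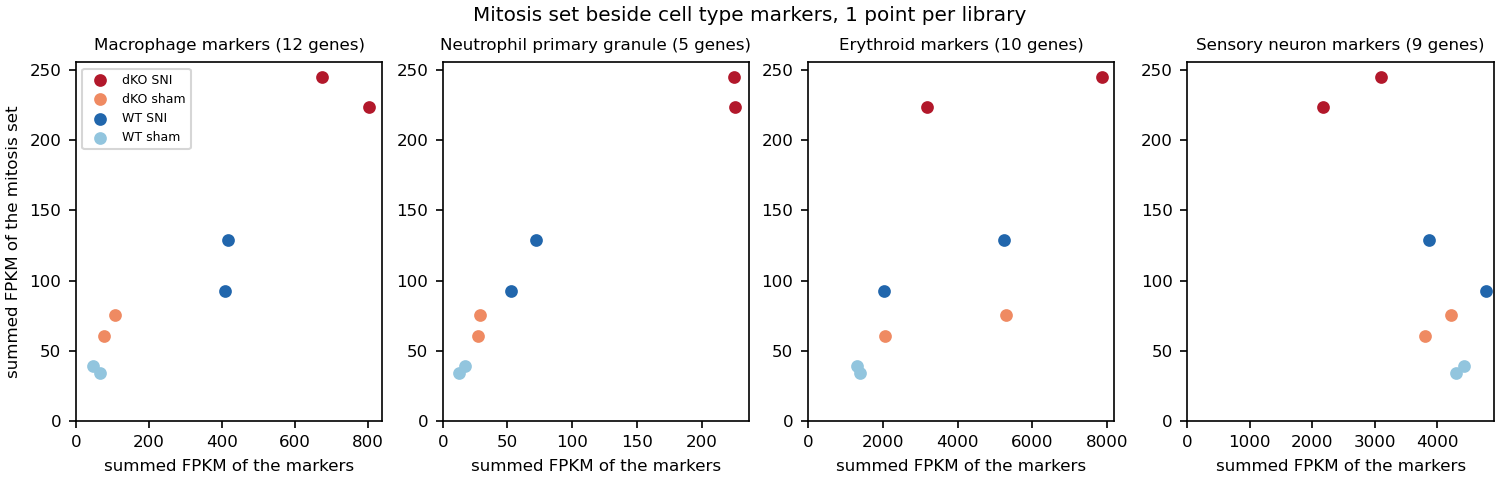
Each point is a library, with the summed FPKM of the 34 mitosis genes on the vertical axis and the summed FPKM of macrophage, neutrophil primary granule, erythroid or sensory neuron markers on the horizontal axis, all from 0. The dKO SNI libraries stand at the top right for macrophage and granule markers (675 and 802, and 225 and 226 FPKM) and at the left for sensory neuron markers (3110 and 2170 FPKM).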

How the data were processed

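Paired-end libraries were made from total RNA of the ganglia with a TruSeq kit, per the labels' protocols. The tools edgeR, StringTie 1.3.0 and HISAT2 2.0.4 and the builds GRCm38.p4 and mm10 are listed, without their roles, per the submitters' processing notes; the annotation and any further scaling are not stated there. What the authors deposited is FPKM for 21878 gene symbols in 8 columns. Of 5713 ratios between low values, 35.3% came within 0.1 of a whole number and chance alone gives 20%, which does not recover whole reads, and no count model was used.

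The 12884 genes that reached 1 FPKM in 2 or more of the 8 libraries were tested as log2(FPKM + 1) with limma 3.58.1 in R 4.3.3, using 1 mean per group, 4 residual degrees of freedom, a mean-variance trend, two-sided tests and Benjamini-Hochberg adjustment at 0.05 over all of them. Replicates correlated at a Pearson r of 0.984 to 0.989, and no libraries were identical. The members and lists were chosen with earlier results of these data known. Genes named with all 8 values were, per role, the 2 most abundant and the 2 with the smallest p in the averaged injury test, the 3 with the smallest p in each other comparison, those called lower, and 5 fixed genes (24 in all). All other members are given by group means or single values, and Foxm1 by its 8 values, chosen after they were seen. Alternatives were a pseudocount of 0.1, no filter (17956 genes), median centring, quantile normalization, a fit of only the groups compared, a replicate block and each library left out.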

Additional observations from a re-analysis of the deposited data

How the results depend on the processing

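Across 1648 repeats over the named genes, 1488 kept their direction and side of the threshold, 152 lost a call, 5 gained one and 3 turned their sign. Those 3 were changes near 0 in WT SNI against WT sham: Cdc45 at -0.06 after quantile normalization, and Mcm4 at 0.03 without WT sham 2 and 0.03 without WT SNI 1 (-0.04 to 0.03 over the libraries left out); the cause was not tested. With a library left out, the number of genes called higher ran from 16 to 42 in WT SNI against WT sham, 50 to 53 in dKO SNI against dKO sham, 0 to 2 in dKO sham against WT sham, 0 to 47 in dKO SNI against WT SNI, 51 to 53 for SNI averaged over genotypes and 19 to 49 for dKO averaged over surgeries, and 0 were called for the difference of responses in each case. In dKO sham against WT sham it was 4 with a pseudocount of 0.1 and 0 with no filter, and for dKO averaged over surgeries it was 29 with no filter, where more genes share the adjustment. Deviations of libraries with the same replicate number correlated at -0.188 to 0.254. With 2 libraries per group this cannot decide whether the numbers pair the libraries. A fit with the replicate number as a block called 53 genes in dKO SNI against dKO sham, 35 in WT SNI against WT sham, 48 in dKO SNI against WT SNI, 2 in dKO sham against WT sham, 53 and 44 in the averages over genotypes and surgeries, and 0 in the difference; among named genes it ended the calls of Pcna in WT SNI against WT sham (limma adjusted p = 0.0599) and of Gins1 in dKO averaged over surgeries (0.0599). Over all genes, dKO sham against WT sham gave 20 calls, 55 with a pseudocount of 0.1, 6 with no filter and 47 with the block. Unknown depth and 2 libraries per group limit genes near 1 FPKM most.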
